A study of Mus musculus with 6 samples.

Results

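The genes described here encode the contractile apparatus of smooth muscle, and they were chosen by name. The list holds 33 genes, and all 33 had at least 10 counts summed over the libraries, out of 23284 genes in the files. The lowest total was 17 counts (Myocd). RNA came from intestine, given as jejunum and ileum together, of male mice aged 8 weeks, which had food back for 6 h after a night without it. The groups were wild-type mice (WT, 3 libraries) and mice lacking SHP (SHP-KO, 3 libraries). SHP, the small heterodimer partner, is a nuclear receptor without a DNA-binding domain that acts as a corepressor and is encoded by Nr0b2. The labels name no strain and do not say how SHP was deleted, whether libraries came from separate animals, or how much of the gut wall was taken. Each p-value therefore reflects library-to-library spread alone, and that spread may be technical.

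Smooth muscle shortens when calcium and calmodulin activate myosin light chain kinase, whose phosphorylation of the myosin light chain lets myosin pull on actin. Myosin phosphatase reverses this step. Actin filaments are anchored in dense bodies and membrane plaques, and desmin filaments link those anchors across the cell. In the intestine this apparatus sits in the muscularis externa, the muscularis mucosae and the walls of vessels, and many of its genes carry CArG boxes, the DNA element bound by serum response factor (SRF) with its coactivator myocardin. The comparison asked which of these genes differed between the genotypes, and whether they rose by a common factor. A larger share of muscle wall would give a common factor only for transcripts made in muscle alone.

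Total counts per library lay between 11265437 and 13511800 in WT and between 7956528 and 9289543 in SHP-KO. Every SHP-KO library was thus shallower than every WT library. Nr0b2 had 68 counts in the WT libraries and 1 in the SHP-KO libraries. In every pair of libraries of a genotype the counts differed by more than sampling noise, at 1.33 to 1.97 times the chi-square that counting alone gives per degree of freedom. The biological coefficient of variation (CV) estimated across all genes was 0.030, so the standard errors (SE) below are small.

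The CArG boxes are shown because they are the sequence feature that several of these genes share. RefSeq promoters (GRCm38.p6, 250 bases before to 50 after the start site) matched 27 of the 33 genes by symbol, with 32 promoters. The other genes, Tagln, Actg2 and Myh11 among them, had no promoter to search. An exact CArG box, which is CC, then 6 letters that are A or T, then GG, stood in 4 of the 32 promoters, belonging to Myl9, Vcl and Ldb3. Of all 32851 RefSeq promoters, 1.63% held one. The motif reads the same on both strands, so 1 search covers both. With 1 of the 6 inner letters changed to C or G, 4 of the 32 promoters (12.5%) held a match, against 8.5% of all promoters. Capitals mark the match, and each sequence runs 5′ to 3′ on the gene's strand.
Acta2, 1 letter changed, chr19:34255418-34255487, minus strand: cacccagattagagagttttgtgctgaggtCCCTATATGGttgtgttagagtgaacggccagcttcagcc
Acta2, 1 letter changed, chr19:34255374-34255437, minus strand: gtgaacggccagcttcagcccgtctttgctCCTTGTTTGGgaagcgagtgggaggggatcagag
Myl9, exact, chr2:156775273-156775342, plus strand: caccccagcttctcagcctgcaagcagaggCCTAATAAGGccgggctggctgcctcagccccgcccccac
Vcl, exact, chr14:20929148-20929210, plus strand: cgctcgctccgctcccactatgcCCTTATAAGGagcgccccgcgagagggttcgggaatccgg
Ldb3, exact, chr14:34588682-34588746, minus strand: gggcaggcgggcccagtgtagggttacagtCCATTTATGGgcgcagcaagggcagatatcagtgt
Matches with 1 letter changed in Myl9, Pdlim3 and Synm are not printed here. The responses of the printed genes differed: Acta2 changed most among the smooth muscle genes tested, Myl9 lay near the middle, and Ldb3 and Vcl changed least. A match is a run of letters and not a measured binding site, and no match says only that the letters are not in this window.

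Every smooth muscle gene measured was higher in SHP-KO, by factors that differed widely. Of the 33 genes, 31 passed the count filter and were tested, and all 31 rose (adjusted p below 0.05, edgeR quasi-likelihood test with Benjamini-Hochberg adjustment over 12106 genes). Among all tested genes 35.2% were called higher and 70.6% changed in either direction. In each of the 33 genes the lowest SHP-KO library lay above the highest WT library, a pattern that 35.9% of all tested genes showed. Kcnmb1 and Cryab were under the filter's minimum in some WT library and passed through their SHP-KO values. The median log2 fold change of the 31 genes was 2.10, or 4.29-fold, where the median over all tested genes was -0.01. The middle of the list ran from 3.32-fold (lower quartile) to 5.24-fold (upper quartile), and the extremes were 1.20-fold for Vcl and 8.11-fold for Acta2. In the authors' deposited table, which holds 32 of these genes and not Myocd, 29 were higher at an FDR below 0.05, as were 19.0% of its 12939 genes. The other 3 in the authors' deposited table were Vcl (FDR 0.482), Ldb3 (0.162) and Ppp1r12b (0.067).

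**Figure D1:**
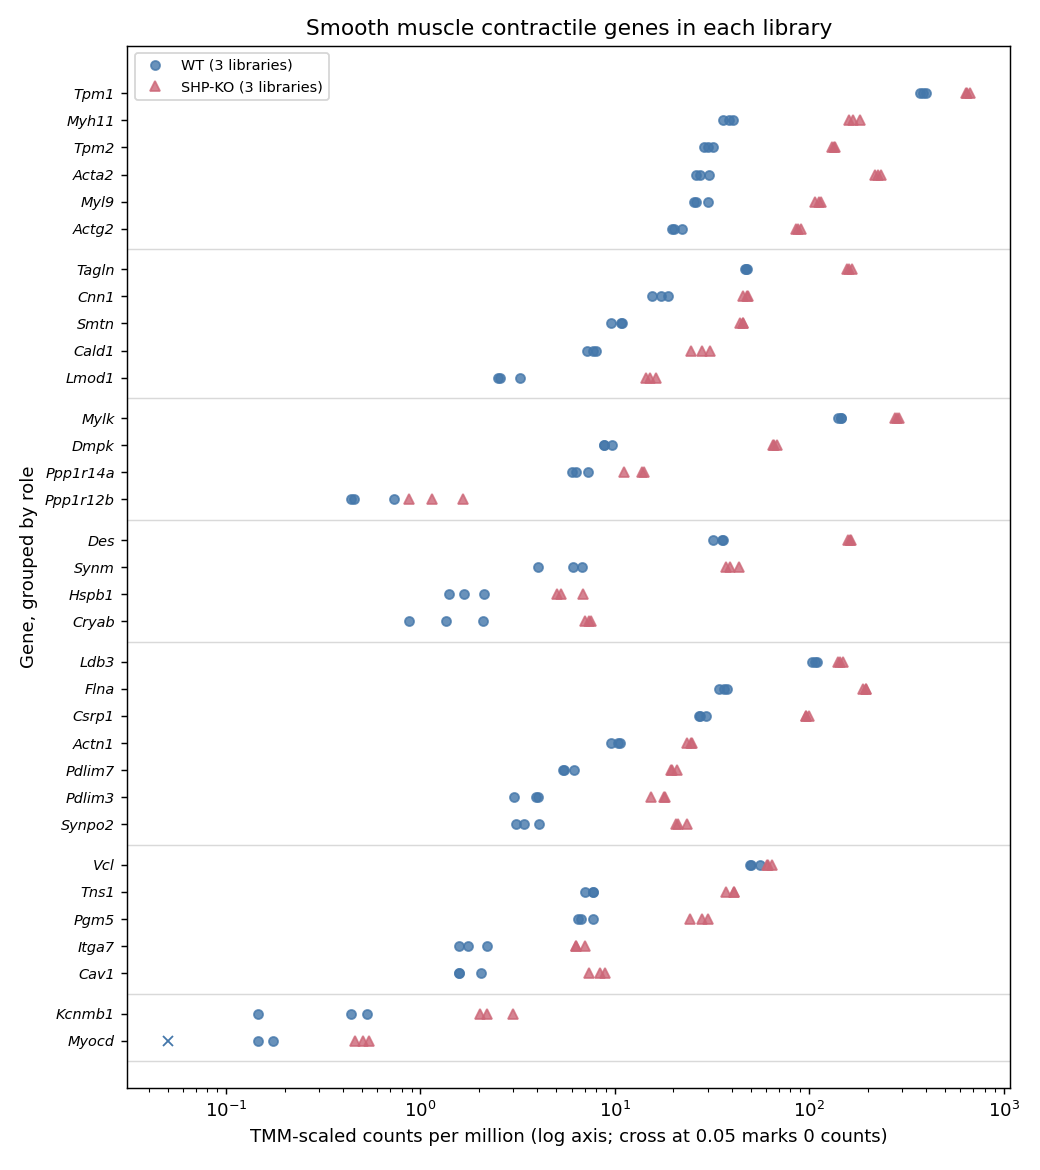
TMM-scaled level in CPM of each of the 33 genes (log axis), with WT libraries as circles and SHP-KO libraries as triangles. Genes are grouped by role, and in every row the 3 SHP-KO libraries lie to the right of the 3 WT libraries, with Vcl the closest pair of groups among the 31 tested genes; a cross at the left marks the WT library of Myocd with 0 counts.

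Levels are given below as CPM, counts scaled to a common library size by TMM, as mean ± SD over 3 libraries, and changes as log2 fold changes of SHP-KO over WT from the edgeR fit. The actins, myosin and tropomyosins that form the filaments come first. Acta2 encodes alpha smooth muscle actin and lies on chromosome 19 from 34315581 to 34329826 (mm9, 9 exon intervals). It was at 27.3, 30.3 and 26.2 CPM in WT replicates 1 to 3 and at 225.8, 233.4 and 218.1 CPM in SHP-KO replicates 1 to 3. The groups were far apart and each was tight, and the gene rose by log2 3.02 (SE 0.048, adjusted p 1.6e-69). Actg2, the gamma actin of gut muscle (chromosome 6, 83462903 to 83486245, 9 exon intervals), was at 19.6, 22.1 and 20.1 CPM in WT and at 87.9, 85.9 and 90.9 CPM in SHP-KO. Both groups were again tight and did not overlap, and the change, log2 2.10 (SE 0.065), was smaller than that of Acta2. The actin genes have near-identical coding sequences and reads with several alignments were not counted, so both levels are uncertain.

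Myh11 encodes the smooth muscle myosin heavy chain and spans 14194620 to 14291501 on chromosome 16, with 83 exon intervals. It was at 40.8, 38.6 and 36.2 CPM in WT and at 168.4, 183.5 and 160.2 CPM in SHP-KO. The groups did not overlap, with SHP-KO replicate 2 the highest, and the transcript rose by log2 2.15 (SE 0.050). Myl9, the regulatory light chain that the kinase phosphorylates, went from 27.3 ± 2.6 to 111.2 ± 3.69 CPM (log2 2.03). Tpm2, a muscle tropomyosin that lies along the actin filament, went from 30.2 ± 1.63 to 134.1 ± 2.86 CPM (log2 2.14).

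Tpm1, its paralog, was the most abundant gene of the list and changed far less in proportion. It lies on chromosome 9 from 66870400 to 66897020, with 89 exon intervals listed. WT libraries held 400.5, 372.6 and 384.6 CPM and SHP-KO libraries 649.8, 670.5 and 644.3 CPM. The groups did not overlap, but the log2 fold change was 0.76 (SE 0.029). The ratio of Tpm1 to Tpm2 fell with it, from 12.8 ± 0.23 in WT to 4.89 ± 0.21 in SHP-KO (CPM over CPM, SD, n = 3).

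The 5 proteins that regulate the thin filament all rose in transcript level, with log2 fold changes between 1.46 and 2.48. Tagln, the actin-binding protein transgelin or SM22-alpha (chromosome 9, 45737711 to 45744141), was at 46.5, 47.3 and 48.1 CPM in WT and at 156.2, 166.5 and 160.9 CPM in SHP-KO. That is log2 1.77 (SE 0.046), under the change of the actins and myosin. Pcsk7 overlaps 95 bp of its exons on the opposite strand, and the counting did not use strand. Cnn1, calponin, which restrains myosin on actin, was at 15.6, 17.3 and 18.8 CPM in WT and at 45.4, 48.1 and 48.6 CPM in SHP-KO. At log2 1.46 (SE 0.076) it had the smallest change of this group. Cald1 (caldesmon) and Smtn (smoothelin) went from 7.64 ± 0.43 to 27.9 ± 3.07 CPM and from 10.4 ± 0.74 to 45.0 ± 0.88 CPM. Lmod1, leiomodin, which nucleates actin filaments, rose most in the group, from 2.76 ± 0.42 to 15.3 ± 0.94 CPM (log2 2.48).

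The enzymes that set myosin phosphorylation were split. Mylk encodes myosin light chain kinase and lies on chromosome 16 from 34785036 to 35002520. It was at 145.6, 141.0 and 145.6 CPM in WT and at 288.5, 276.5 and 284.0 CPM in SHP-KO. It rose 1.96-fold (log2 0.97, SE 0.035) from a high WT level, and exons of E130310I04Rik overlap 487 bp of it on the opposite strand. Ppp1r14a, or CPI-17, an inhibitor of myosin phosphatase, rose by nearly the same factor, from 6.55 ± 0.66 to 13.03 ± 1.59 CPM (log2 0.99, SE 0.13). Dmpk, a kinase named for myotonic dystrophy, rose much more. It was at 9.64, 8.77 and 8.77 CPM in WT and at 65.9, 65.2 and 68.1 CPM in SHP-KO, so it rose by log2 2.87 (SE 0.079). Among the 31 smooth muscle genes only Acta2 rose more.

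Ppp1r12b, a targeting subunit of myosin phosphatase, did not pass the filter. It had 10, 5 and 6 counts in WT and 13, 8 and 10 in SHP-KO. Fitted without a filter its log2 fold change was 1.07 (adjusted p 0.035, edgeR), in a fit where 26.0% of 17414 genes were called higher.

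Desmin filaments and the small heat shock proteins that accompany them all rose. Des, the muscle intermediate filament protein (chromosome 1, 75356919 to 75364290, 9 exon intervals), had WT levels of 35.5, 31.8 and 36.1 CPM and SHP-KO levels of 158.1, 164.8 and 161.7 CPM (log2 2.22, SE 0.050). Its change was close to that of Myh11. Synm, synemin, which joins desmin filaments to membrane plaques, was at 4.02, 6.75 and 6.12 CPM in WT and at 39.3, 37.5 and 43.4 CPM in SHP-KO. WT replicate 1 was the lowest, and the log2 fold change was 2.85 (SE 0.11). Cryab and Hspb1, small heat shock proteins, were low transcripts at 1.45 ± 0.62 and 1.73 ± 0.36 CPM in WT. They rose by log2 2.36 (SE 0.22) and 1.70 (SE 0.22).

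Actin crosslinkers and dense body proteins covered nearly the full range. Flna, filamin A (chromosome X, 71468800 to 71491873, 46 exon intervals), was at 36.5, 37.8 and 34.2 CPM in WT and at 188.4, 195.8 and 196.8 CPM for SHP-KO; the groups did not overlap (log2 2.42, SE 0.047). Synpo2, or myopodin, rose by log2 2.61 and Pdlim3, a PDZ and LIM protein of actin anchorage, by log2 2.22. Csrp1 and Pdlim7, LIM proteins of the actin cytoskeleton, rose by log2 1.80 and 1.81. Actn1, alpha-actinin, the crosslinker of dense bodies, rose less, from 10.2 ± 0.58 to 24.4 ± 0.73 CPM (log2 1.249, SE 0.099).

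Ldb3, a PDZ and LIM protein best known from the Z-disc of striated muscle, changed little. It lies on chromosome 14 from 35339885 to 35401867, with 90 exon intervals. WT libraries held 109.1, 103.5 and 106.7 CPM and SHP-KO libraries 143.8, 140.4 and 149.9 CPM. Its log2 fold change was 0.44 (SE 0.041, adjusted p 7.9e-17), and no other gene in the files overlaps its exons. With an assumed CV of 0.2, the setting of the authors' table, it did not pass (adjusted p 0.15, edgeR exact test).

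Of the 5 genes of membrane attachment, 4 rose by factors near the median. Tns1, tensin, which ties actin to integrins, went from 7.48 ± 0.40 to 39.8 ± 2.16 CPM (log2 2.41). Cav1, caveolin, the coat protein of caveolae, went from 1.74 ± 0.27 to 8.25 ± 0.79 CPM (log2 2.24). Itga7, a laminin-binding integrin of muscle, had a log2 fold change of 1.81 (SE 0.21). Pgm5, or aciculin, a partner of dystrophin complexes, was at log2 1.98, and E030010A14Rik overlaps 17.6% of its exon length on the opposite strand.

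Vcl, vinculin, which holds actin at membrane plaques and at the adherens junctions of other cells, was the exception. It lies on chromosome 14 from 21748655 to 21852895, with 21 exon intervals. WT libraries held 49.8, 55.7 and 50.1 CPM and SHP-KO libraries 60.3, 61.3 and 64.3 CPM. The groups lay next to each other without overlap, at log2 0.26 (SE 0.059, adjusted p 6.3e-05). With the assumed CV of 0.2 it did not pass (adjusted p 0.45, edgeR exact test). In that exact test 29 of the 31 genes still passed, all but Vcl and Ldb3, where 17.9% of all tested genes were called higher.

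Kcnmb1, the smooth muscle subunit of the BK potassium channel, was a low transcript with 2, 5 and 7 counts in WT and 16, 20 and 26 in SHP-KO. Its log2 fold change was 2.68 with a wide error (SE 0.39). Myocd, the SRF coactivator myocardin, had 2, 2 and 0 counts in WT and 4, 5 and 4 in SHP-KO. It was below the filter, and in the unfiltered fit its log2 fold change was 2.10 (adjusted p 0.027, edgeR). With so few counts these libraries give only its direction.

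The changes of the 31 tested genes did not share 1 factor. Their log2 fold changes had an SD of 0.69, against a median SE of 0.084 (range 0.029 to 0.39). Of the 31 genes, 19 lay between log2 1.5 and 2.5, a band that held 5.10% of all tested genes as called rises. Another 5 lay above it (Acta2, Dmpk, Synm, Kcnmb1 and Synpo2), 2 between log2 1 and 1.5 (Cnn1 and Actn1), and 5 under log2 1 (Ppp1r14a, Mylk, Tpm1, Ldb3 and Vcl). The highest fold was 6.77 times the lowest. How much of each transcript came from other cells was not measured, and the share of muscle wall was not tested.

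**Figure D2:**
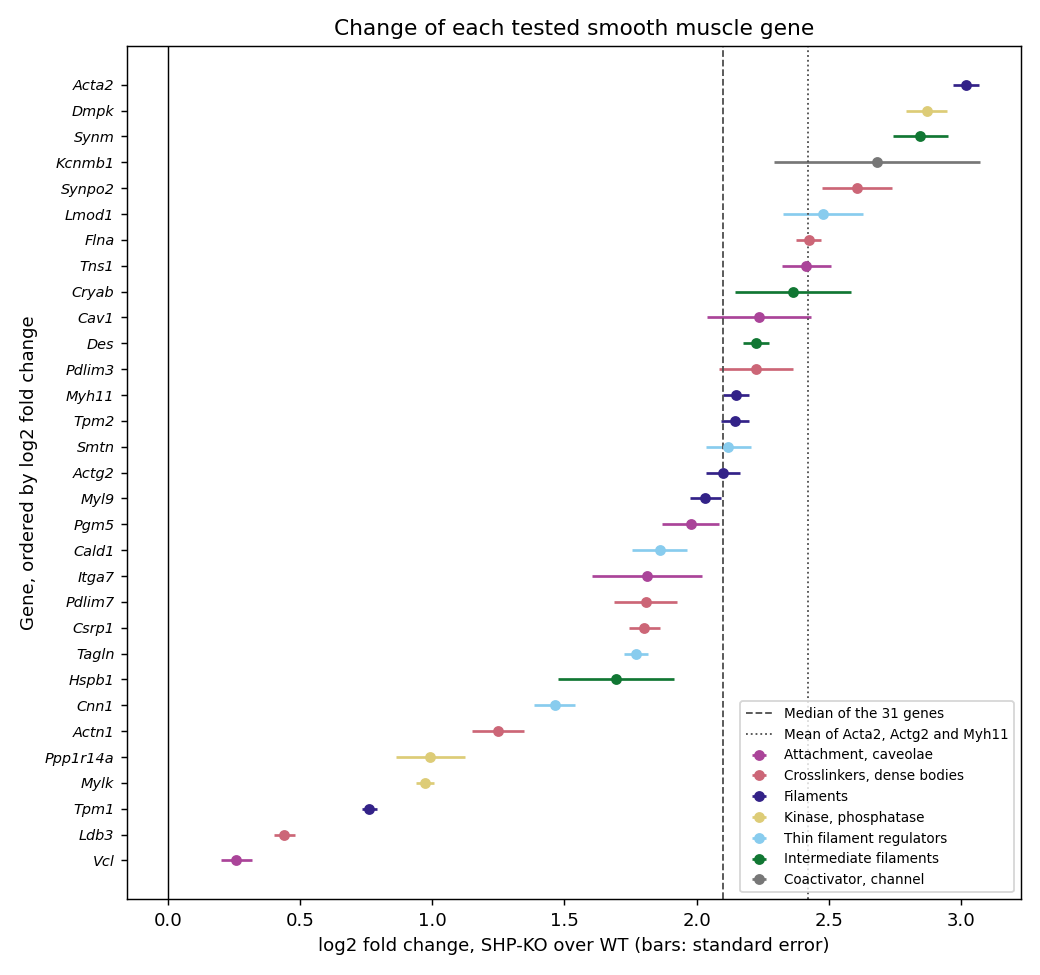
Log2 fold change of SHP-KO over WT for each of the 31 tested genes, ordered by size, with the standard error as a bar and colours for roles. The dashed line is the median (2.10) and the dotted line the mean of Acta2, Actg2 and Myh11 (2.42); the lowest genes, from Vcl to Actn1, lie well to the left of both.

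Each gene was then tested against a contractile reference, the mean log level of Acta2, Actg2 and Myh11 in each library, which itself rose by log2 2.42 (5.36-fold). Acta2 (log2 3.02) raised this mean above Actg2 (2.10) and Myh11 (2.15), and the levels of both actins are uncertain. Set against this reference in the edgeR quasi-likelihood test, 18 of the 28 other genes rose less, 2 rose more (Dmpk and Synm) and 8 did not pass. Of all tested genes 95.1% were lower, 0.743% higher and 95.8% either by the same rule. The 8 that did not pass were Lmod1, Cryab, Flna, Synpo2, Pdlim3, Tns1, Cav1 and Kcnmb1. For Flna, the most precise of them, the difference from the reference was 0.00 on the log2 scale (SE 0.071). Settings added after the data were seen called fewer: 12 genes lower and none higher with an assumed CV of 0.2 (95.0% of all tested genes called), and 7 lower and none higher when the difference had to exceed 1.5-fold (93.6% called). Those 7 were Tpm1, Cnn1, Mylk, Ppp1r14a, Actn1, Ldb3 and Vcl.

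Which genes differed depended on the reference, and the reference genes themselves differed. Against Myh11 alone, Acta2 rose more, by log2 0.87 (SE 0.098, adjusted p 1.3e-18, edgeR), while Actg2 (-0.04, SE 0.11), Tpm2 (0.00, SE 0.10), Myl9 (-0.11, SE 0.10), Smtn (-0.02, SE 0.12) and Des (0.08, SE 0.098) did not pass. Of the 30 genes compared with Myh11, 11 rose less, 6 rose more and 13 did not pass, where 93.6% of all tested genes were lower, 1.27% higher and 94.9% either. Tpm1 (-1.38), Mylk (-1.17), Ppp1r14a (-1.15), Actn1 (-0.89), Ldb3 (-1.70) and Vcl (-1.89) rose less than the reference under each of 4 references (the 3-gene mean, Myh11, Des with Cnn1, and all 31 genes). Dmpk (0.73) and Synm (0.70) rose more under each of the 4; the values in brackets are log2 differences from Myh11. Against Des with Cnn1, 6 of 26 genes rose less and 12 more (94.5% of all tested genes called), and against the mean of all 31 genes 8 of 28 rose less and 9 more (94.8%). The mean of all 31 genes contains the genes set against it, so a split to both sides of it was built in. All 4 references were drawn from the same list and share genes, so they are not independent of each other. Some genes changed side: Tpm2 and Smtn rose less than the 3-gene mean but more than Des with Cnn1 and more than the mean of all 31 genes. Myl9 rose less than the 3-gene mean and more than Des with Cnn1, and Des rose less than the 3-gene mean and more than the mean of all 31 genes. Flna, Synpo2 and Tns1 did not pass against the 3-gene mean and rose more than each of the other 3 references.

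**Figure D3:**
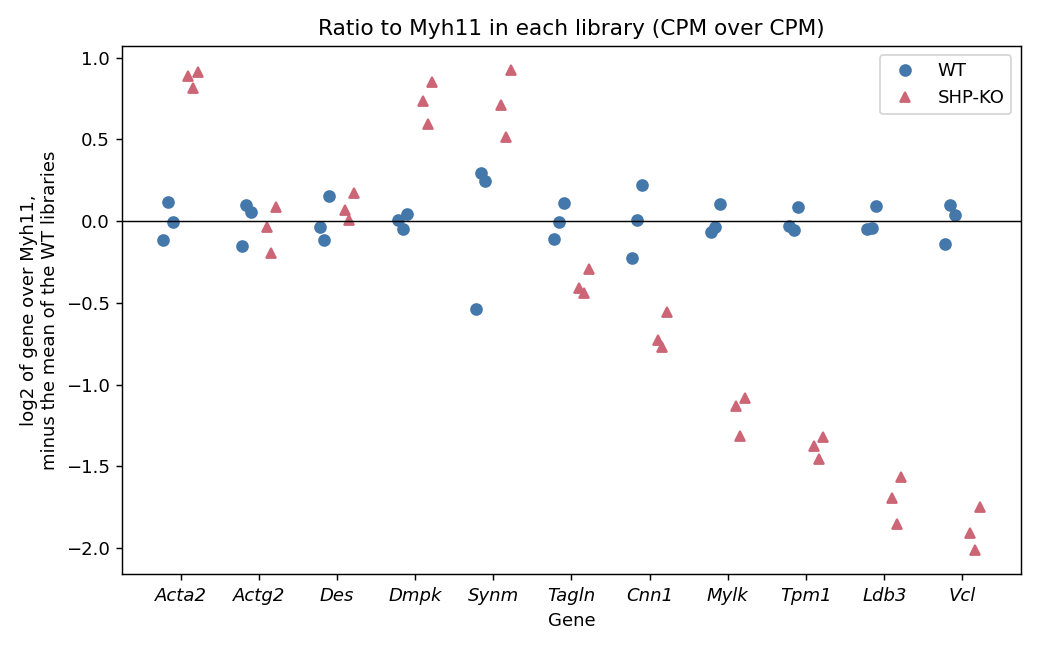
Log2 of the ratio of 11 genes to Myh11 in each library (CPM over CPM), after subtracting the mean of the WT libraries, with WT as circles and SHP-KO as triangles. Actg2 and Des stay near 0 in both groups, Acta2, Dmpk and Synm lie above 0 in SHP-KO, and the SHP-KO ratios lie lower from gene to gene between Tagln and Vcl; for Synm, WT replicate 1 lies apart from the other WT libraries.

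The ratio of the actins showed the same inequality without any scaling, although both actin levels are uncertain because reads with several alignments were not counted. Acta2 over Actg2 was 1.39, 1.37 and 1.30 in the WT libraries and 2.57, 2.72 and 2.40 in the SHP-KO libraries (CPM over CPM). The groups did not overlap, although an exact permutation test of 3 against 3 cannot go below p = 0.10 (two-sided). Actg2 over Myh11 was 0.54 ± 0.048 in WT and 0.52 ± 0.050 in SHP-KO, a difference smaller than the SD. Vcl over Myh11 went from 1.35 ± 0.11 to 0.36 ± 0.034.

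In absolute terms the order was different. The 33 genes together made up between 0.108% and 0.112% of the counts in WT libraries and between 0.286% and 0.290% in SHP-KO libraries. Tpm1 ranked 29 of 31 by fold but gained the most CPM, 269.0, followed by Acta2 (197.8), Flna (157.5), Mylk (138.9), Myh11 (132.2), Des (127.1) and Tagln (113.9). Ldb3 gained 38.2 CPM, more than Synm (34.5), although Synm rose 7.12-fold and Ldb3 1.36-fold. Per kb of exon, which allows levels of different genes to be compared, WT levels were highest for Tpm1 (117.7 CPM per kb), Tagln (29.8) and Myl9 (25.2). In SHP-KO they were highest for Tpm1 (199.7 CPM per kb), Acta2 (126.8) and Myl9 (102.7). Acta2 went from 15.7 to 126.8 CPM per kb, and Actg2, at the same 15.7 in WT, to 67.1.

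Genes with a high WT level per kb tended to change less. Across the 31 genes Spearman's rho between the WT level per kb and the log2 fold change was -0.49, and the WT libraries enter both measures. Over 12105 tested genes with a WT count it was -0.18. Tpm1, Mylk and Ldb3 combined high WT levels with small changes, whereas Des and Actg2, at 16.03 and 15.7 CPM per kb in WT against 18.4 for Mylk, rose by log2 2.22 and 2.10. Exon length showed little relation to the change, with rho 0.15 across the 31 genes and 0.02 across 12106.

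**Figure D4:**
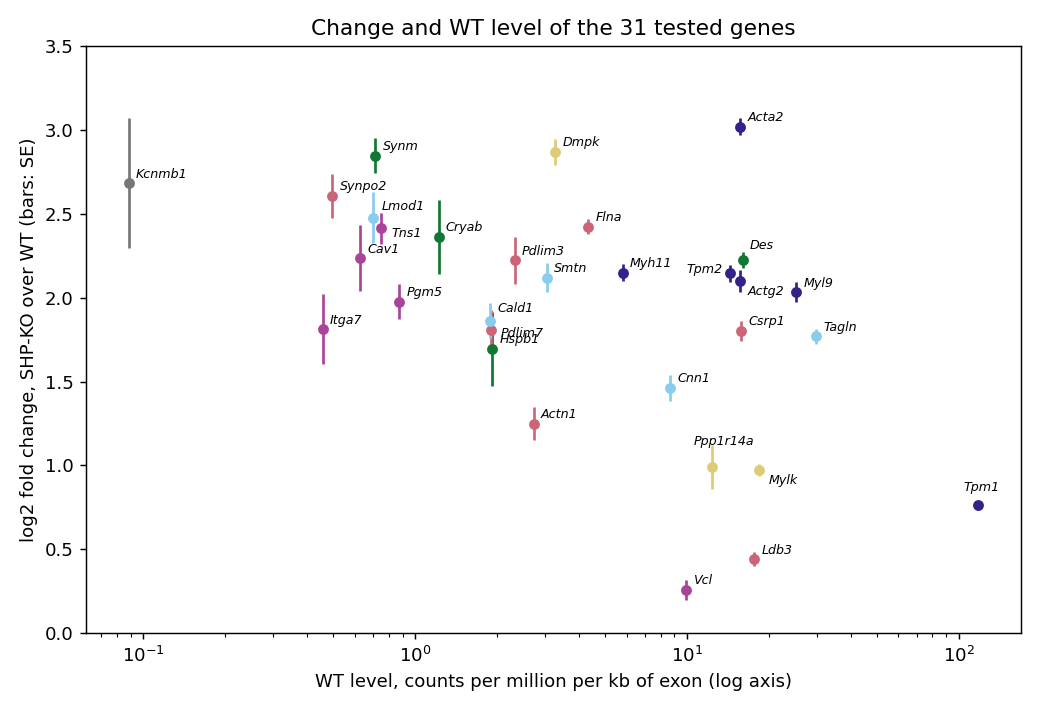
Log2 fold change of SHP-KO over WT (bars are standard errors) against the WT level in CPM per kb of exon (log axis) for the 31 tested genes, coloured by role. Genes of similar WT level lie far apart, such as Ldb3 (17.7 CPM per kb, log2 0.44) and Acta2 (15.7 CPM per kb, log2 3.02).

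Within a genotype no library carried the pattern. The median of the 31 genes, as log2 difference from the WT mean, was 2.09, 2.06 and 2.08 in SHP-KO replicates 1 to 3 and between -0.03 and 0.02 in the WT libraries. Of the 33 genes, 7, 9 and 17 were highest in SHP-KO replicates 1 to 3. Leaving out any 1 library left the median between log2 2.02 and 2.10.

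The 5 genes outside the list whose pattern over the 6 libraries lay closest to that of Myh11 were Tomm40l, H2-Eb1, Myom1, H2-Aa and Ada, among 7405 genes of at least 10 CPM (distance of centred log2 CPM 0.14 to 0.19). Their log2 fold changes lay between 2.07 and 2.15. Only Myom1, a sarcomere protein, belongs to muscle by its known role. H2-Aa and H2-Eb1 encode MHC class II chains and Ada encodes adenosine deaminase, so changes as large as that of Myh11 were also measured in genes without a known contractile role.

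Other genes of the smooth muscle programme were less uniform. Of 15 tested genes of excitation, calcium handling and nitric oxide signalling, 12 rose, 2 fell and 1 (Pde5a) did not pass. By the same rule 35.2% of all tested genes were higher and 70.6% changed in either direction. Of the 12, 8 were under the count minimum in some WT library and passed the filter through their SHP-KO values, so the filter favoured a rise in them: Cacna1c, Kcnma1, P2rx1, Ryr2, Pln, Casq2, Gucy1a3 and Gucy1b3. The other 4 were Mrvi1, Itpr1, the inositol trisphosphate receptor (log2 0.87), Gnaq, a G protein subunit (log2 0.33), and Rock2 (log2 0.20). Mrvi1, the cGMP kinase substrate IRAG, rose from 3.28 ± 0.19 to 14.8 ± 1.49 CPM (log2 2.17). Casq2, calsequestrin, rose from 0.57 ± 0.42 to 4.68 ± 0.42 CPM (log2 3.07), and Cacna1c, the L-type calcium channel, from 9 counts in WT to 56 in SHP-KO. The falls were Rock1, a kinase that inhibits myosin phosphatase (log2 -1.06, SE 0.071), and Atp2a2, the calcium pump SERCA2 (log2 -0.09), whose fall did not pass with DESeq2 size factors. The muscarinic receptors Chrm2 and Chrm3, through which acetylcholine contracts the gut, were below the filter. Chrm2 had 1, 1 and 0 counts in WT and 12, 8 and 4 in SHP-KO. Chrm3 had 1, 1 and 2 counts in WT and 12, 2 and 1 in SHP-KO, so its groups overlapped and its higher total rests on SHP-KO replicate 1.

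Of 22 further structural genes, 14 rose, 6 fell and 2 did not pass; 3 of the 14 (Nexn, Hspb6 and Rbpms2) were under the count minimum in some WT library. The 3 genes of this list with the smallest p were Ckb, Ptrf and Jph2. Ckb, brain-type creatine kinase, rose from 28.2 ± 0.47 to 166.3 ± 7.96 CPM (log2 2.56). Ptrf, cavin of caveolae, rose by log2 2.34 and Jph2, junctophilin, by log2 3.25. Chosen after their values were seen, Zyx, Ilk, Filip1l, Cnn2 and Slmap were among those that fell, by between 0.17 and 0.49 on the log2 scale.

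SRF and its cofactors showed no common direction. Mean Srf levels were 76.6 ± 2.73 CPM for WT and 78.4 ± 2.91 CPM for SHP-KO (log2 0.03, SE 0.050, adjusted p 0.61, edgeR). Mkl1 and Mkl2, the myocardin-related coactivators, were at log2 0.07 and 0.04 and did not pass either (adjusted p 0.42 and 0.68). Of the 10 tested factors 3 rose (Foxf2, Nkx2-3 and Fhl2, of which Foxf2 was under the count minimum in some WT library), 2 fell (Mef2c and Fhl1) and 5 did not pass. The shares over all tested genes were 35.2% higher and 70.6% either. Mef2c fell from 178 counts to 24 (log2 -2.30, SE 0.28) and Fhl1 from 69.0 ± 2.37 to 27.3 ± 1.18 CPM (log2 -1.34).

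The non-muscle counterparts of these proteins changed in both directions, between log2 -0.74 (Myl12a) and 0.98 (Myh10). Among all tested genes 35.2% were called higher and 70.6% in either direction. Of 15 tested genes 9 rose, 4 fell and 2 did not pass; their median change was log2 0.09. Without scaling factors the rises of Actg1 (0.10), Myl6 (0.09) and Actn4 (0.08) did not pass, leaving 6. Actb, the main cytoplasmic actin, went from 8512 ± 126.9 to 11173 ± 296.0 CPM (log2 0.39, SE 0.021), next to the 8.11-fold rise of Acta2. Tpm4, Tpm3 and Ppp1r12a rose by log2 0.27, 0.16 and 0.27, and Myh10 by 0.98 from 1.66 ± 0.31 CPM. The light chains Myl12a and Myl12b, Myh14 and Tagln2 fell by 0.74, 0.52, 0.29 and 0.25 on the log2 scale. Myh9 (0.00) and Cnn3 (-0.08) did not pass. As ratios of mean CPM, Tpm2, Tagln and Myl9 were at 4.43, 3.41 and 4.08, and their relatives Tpm4, Tagln2 and Myl12b at 1.21, 0.84 and 0.70.

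**Figure D5:**
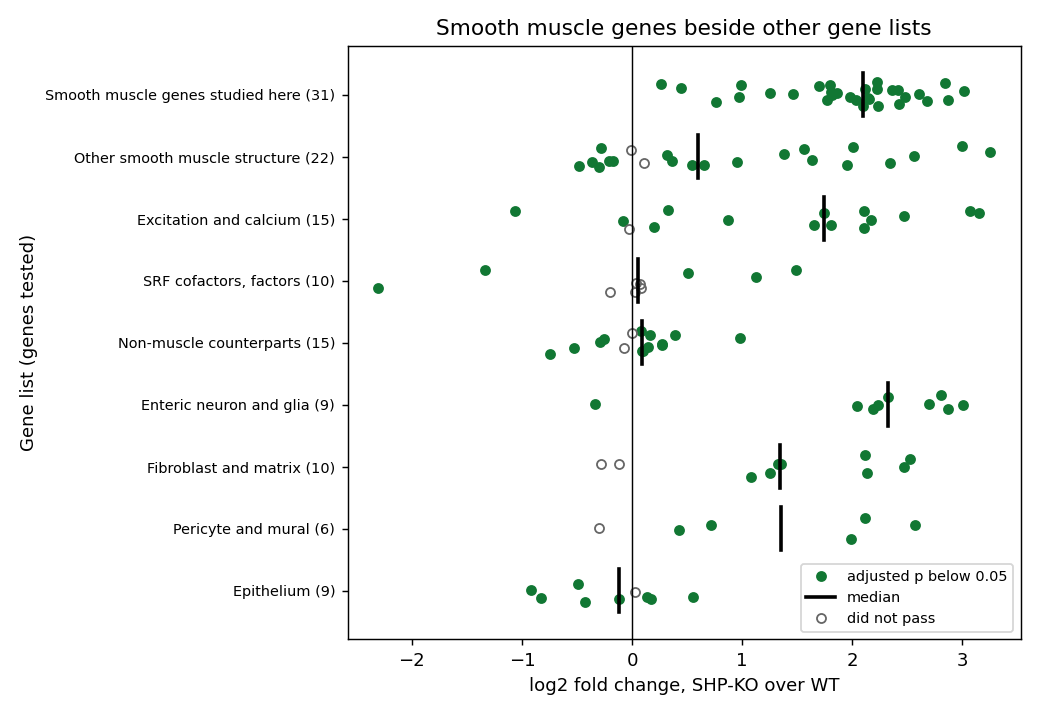
Log2 fold changes of SHP-KO over WT for the tested genes of each list, with filled points for genes with an adjusted p below 0.05, open points for the others and a bar at the median. The smooth muscle genes lie to the right of 0 throughout, the nerve and matrix markers mostly so, and the non-muscle counterparts and epithelial markers lie around 0.

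Markers of other cells of the gut wall moved in the same libraries. The counts below stand beside 35.2% of all tested genes called higher and 70.6% in either direction. Of 15 listed markers of enteric neurons and glia 9 were tested, of which 8 rose and Ret fell, and their summed level went from a range of 17.2 to 20.9 CPM in WT to 56.5 to 58.0 CPM in SHP-KO. Of the 8, 5 were under the count minimum in some WT library, Tubb3 among them. Hand2, Prph and Tubb3 rose by log2 2.80, 2.05 and 2.87. Of 10 tested fibroblast and matrix genes 8 rose, and the summed level of the list went from 145.6 to 162.9 CPM in WT to 338.4 to 346.2 CPM in SHP-KO, most of it Fbln1 (log2 1.08). The collagen genes Col1a1, Col3a1, Col6a1 and Col6a2 rose by log2 2.13, 2.12, 2.47 and 2.53, close to the median of the smooth muscle genes, and Col1a2, Pdgfra and Dpt by 1.33, 1.25 and 1.35. Dcn (-0.12) and Bgn (-0.28) did not pass. Among 6 tested pericyte and vascular mural markers 5 rose, and the median of the 6 was log2 1.35. Rgs5 was at log2 2.57, Abcc9 at 2.12, Mcam at 1.99, Cspg4 at 0.71 and Pdgfrb at 0.43, and Kcnj8 at -0.30 did not pass. The summed level of this list was 20.8 to 22.1 CPM in WT and 41.6 to 44.2 CPM in SHP-KO. Of 8 adipocyte markers the 4 tested rose, and the summed level was 116.6 to 120.2 CPM in WT and 156.2 to 167.7 CPM in SHP-KO, most of it Cidec (log2 0.25). The other 3, Fabp4, Cfd and Car3, rose by log2 2.92, 3.33 and 4.69, and Cfd and Car3 were under the count minimum in some WT library. The part that these cells have in the rise of the smooth muscle genes was not tested. In bulk tissue, more muscle cells and more RNA of these genes per cell cannot be told apart.

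Myosin heavy chains of striated muscle were at or near 0. Of the 14 listed genes, of which 3 were tested, Myh4, Myh6 and Mb had no count, and Myh1, Myh2, Myh7, Actc1 and Tnnt3 had at most 3 counts in either group. The light chain Myl1, below the filter, was at 5 counts in the WT libraries and 28 in the SHP-KO libraries without overlap (log2 2.90, adjusted p 1.9e-05 in the unfiltered edgeR fit), and Tnni2 and Ttn had 7 and 21 counts in WT and 8 and 13 in SHP-KO. Tnnt2 and Ckm rose (log2 2.90 and 2.43) from 78 and 24 counts in WT, Ckm being under the count minimum in some WT library. Acta1, the skeletal actin, fell from 153.1 ± 2.73 CPM to 101.0 ± 0.20 CPM (log2 -0.60), opposite in direction to Acta2 and Actg2. Mesothelial Msln fell by 2.89 on the log2 scale, and the other 4 markers of that lining had at most 5 counts in either group. Of the pacemaker cell markers Ano1 rose (log2 1.18) and Kit did not pass (-0.29). Of 5 tested endothelial markers 3 rose (Cdh5, Esam and Eng, each under the count minimum in some WT library), Tie1 fell and Pecam1 did not pass (log2 0.11, adjusted p 0.61, edgeR). Over all tested genes the shares were 35.2% higher and 70.6% either.

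The summed level of 9 epithelial markers differed little. It was 22152.5 to 22344 CPM in WT and 22165 to 22208 CPM in SHP-KO. Where 35.2% of all tested genes were called higher and 70.6% either, 3 of the 9 rose, 5 fell and Epcam did not pass (log2 0.03). The largest were Cdx2 (-0.92), Krt19 (-0.82) and Krt18 (0.56). The summed level of the 33 smooth muscle genes, 1071 to 1101 CPM in WT and 2900 to 2946 CPM in SHP-KO, was small beside it in both groups.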

How the data were processed

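Gene-level RNA sequencing counts of 6 libraries (3 WT, 3 SHP-KO; 100 bp reads per the labels) were used. Per the submitters' processing notes the tools were STAR 2.6.0c, Trimmomatic 0.38, FastQC 0.11.5, bcl2fastq 2.17.1.14 and edgeR, and the genome build was mm9. The deposited counts are whole reads per gene from featureCounts 1.5.2, unstranded and summed over exons, per the file headers. The authors' deposited table gives log2 fold changes and p-values.

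Counts were filtered with filterByExpr (minimum count 10), and edgeR 4.0.16 (R 4.3.3) compared the genotypes over 12106 genes by robust quasi-likelihood after TMM scaling. A second fit added the mean log level of reference genes (0.5 added to counts) to each library's offset. It asks whether a gene's change differs from that of the reference. Alternatives used limma 3.58.1 and DESeq2 1.42.0, and figures matplotlib 3.10.9. The scripts were tested on simulated data. The members and gene lists were chosen with earlier results of these data known. All 33 members are named, with the 3 smallest p per other list, the non-muscle counterparts, and others picked after their values were seen; some listed genes are counted but not reported here by name. Intervals and errors cover these libraries only. Gene coordinates are in mm9, and promoters come from a GRCm38.p6 table with no conversion between builds.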

Additional observations from a re-analysis of the deposited data

How the results depend on the processing

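Of 496 values of the 31 tested genes under 16 alternatives, 494 kept their direction and call and 2 lost the call, Vcl (log2 0.26) and Ldb3 (0.44) with an assumed CV of 0.2; none reversed. Testing every gene with a count called 33 of 33 genes higher, as were 26.0% of the 17414 genes fitted. The median was then 2.04, and a filter of 1 CPM in 1 library gave 2.05. Leaving out each library in turn gave medians of 2.02 to 2.10 and 31 or 32 genes higher. In these fits 17 to 20 of 28 genes differed from the contractile reference, against 94.1% to 95.1% of all tested genes. That count was 20 in the main setting (95.8% of all tested genes). It was 12 with an assumed CV of 0.2 (95.0%) and 7 against a 1.5-fold difference (93.6%). Both the 12 and the 7 came from settings chosen after the data were seen. Same-numbered libraries did not deviate together (r 0.013, 0.014 and -0.006). With the replicate number as a block, 31 genes were higher, the median was 2.10 and 20 genes differed from the reference (95.8% of all tested genes). Across scalings the median of all tested genes lay between -0.05 and -0.01. Myocd and Ppp1r12b, with 17 and 52 counts in all, are limited by depth.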
